A study of Mus musculus with 4 samples.

Results

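Nonclassical major histocompatibility complex (MHC) class I genes were followed in mouse colon tumours. The 9 genes were chosen by symbol, from their place in the class Ib family, but with earlier results of these data known. They are H2-Q1, H2-Q2, H2-Q4, H2-Q6, H2-Q7 and H2-Q10 of the Q region, H2-T22 and H2-T23 of the T region, and H2-M3 of the M region. All 9 were found among the 26214 genes of the deposited count files, and all 9 passed the filter on low counts that left 16637 genes to test. The tumours came from mice given azoxymethane and dextran sulfate sodium (AOM/DSS), a carcinogen followed by a chemical that inflames the colon. The 2 control libraries are labelled Gsk3b (IEC+/+) and the 2 others Gsk3b (IEC-/-), a loss of glycogen synthase kinase 3 beta in intestinal epithelial cells. Polyadenylated RNA of colon cancer tissue was sequenced in all 4 libraries, and all groups had the AOM/DSS model in common. The mouse strain, age and sex and the promoter that drives the deletion are not given in the sources used here.

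Class I molecules are cell-surface proteins made of a heavy chain and, in most cases, beta-2-microglobulin. The classical heavy chains H2-K, H2-D and H2-L present peptides from inside the cell to CD8 T cells and vary widely between mouse strains. The nonclassical, or class Ib, heavy chains vary less and have narrower roles. Interferon gamma raises many class I genes through IRF1 and the class I transactivator NLRC5. In the gut, class I and class Ib molecules on epithelial and immune cells are read by T cells, intraepithelial lymphocytes and natural killer (NK) cells.

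Total counts per library ran from 25472503 to 27218515, so depth was similar. Gsk3b itself had 4417 and 4149 counts in the IEC+/+ libraries and 4239 and 3910 in the IEC-/- libraries. A count over the whole gene in whole tissue does not show whether a part of it was deleted in epithelium, so it is no check of the labels. Markers of epithelium were high in all 4 libraries, with a summed level of 10071 to 11752 CPM (counts scaled to library size) in IEC+/+ and 6169 to 6527 in the IEC-/- pair. The IEC-/- libraries differed more from each other (chi-square per degree of freedom 66.6) than the IEC+/+ libraries did (33.8). Over all genes, 147 of 16637 passed the test between the groups (0.884%). Of these, 20 were higher in IEC-/- (0.120% of genes tested) and 127 lower (0.763%).

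The class Ib genes together stood at the same level in 3 libraries and far higher in the other. Their summed level was 253 and 252 CPM in the IEC+/+ libraries, 253 CPM in IEC-/- replicate 1 and 1357 CPM in IEC-/- replicate 2. Most of that excess lay in H2-Q6, H2-Q7 and H2-Q4, followed by H2-T22 and H2-T23, while H2-Q1, H2-Q2 and H2-Q10 in IEC-/- replicate 2 were near their IEC+/+ levels. The sum was 3.19 times as high in IEC-/- as in IEC+/+, with a 95% interval from 0.920 to 11.04 (edgeR quasi-likelihood test, adjusted p = 0.33). The ratio without IEC-/- replicate 2 was 1.01 (0.792 to 1.28, adjusted p = 0.981), and without IEC-/- replicate 1 it was 5.33 (4.18 to 6.81, adjusted p = 0.00245). In whole tissue, fewer cells of a type and less RNA per cell cannot be told apart, and the same holds for more cells and more RNA. Nothing in the labels ties each library to its own mouse. Every p-value therefore reflects only how far these libraries lie apart, which may be technical.

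Of the 9 genes, 0 passed the adjusted p of 0.05 by edgeR's quasi-likelihood test, where 0.884% of all genes did, and DESeq2, the edgeR exact test and limma-voom also called 0. At an unadjusted p under 0.05 there were 3 (H2-Q4, H2-Q6 and H2-Q7), against 16.6% of all genes. The IEC-/- mean was above the IEC+/+ mean for 7 genes and below it for 2. The groups did not overlap for 4 genes (H2-Q4, H2-Q6, H2-Q7 and H2-M3), where 48.0% of all genes tested did not. In these 4 the IEC-/- libraries were the higher ones, as in 3990 of the 16637 genes, and for 0 genes were they both the lower ones, an order that 24.1% of all genes had. The median log2 fold change of the 9 genes was 0.65, against 0.01 over all genes. That median was -0.09 without IEC-/- replicate 2 and 1.01 without IEC-/- replicate 1. IEC-/- replicate 2 was the highest library for 8 of the 9 genes, as it was for 27.7% of all genes.

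**Figure D1:**
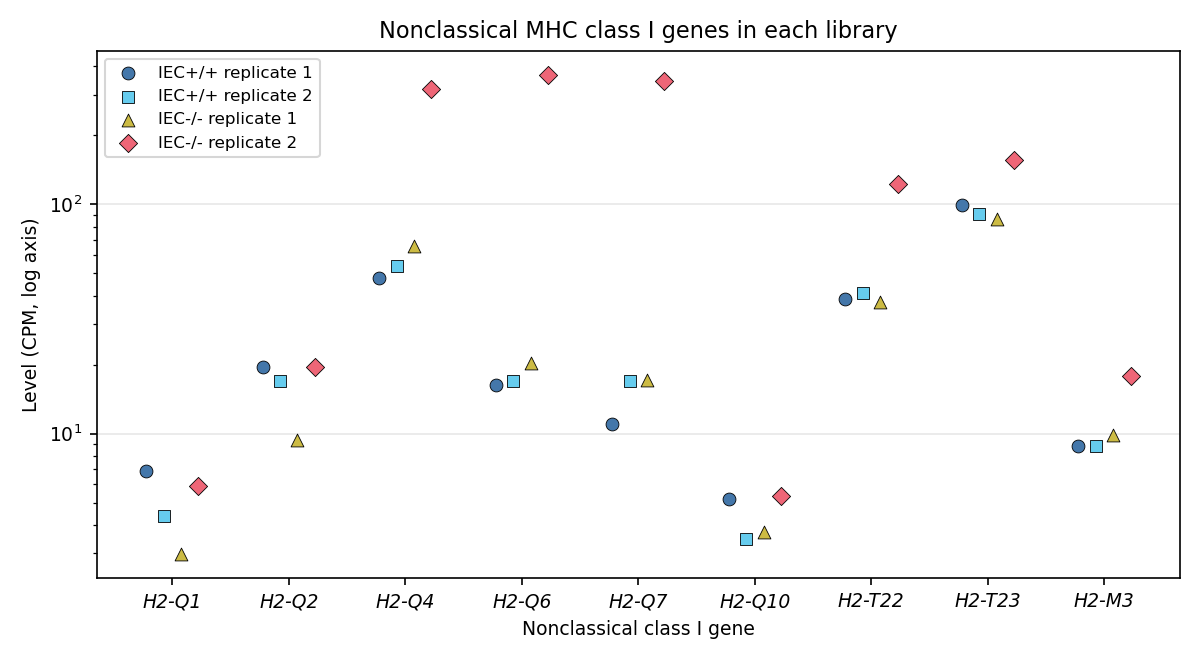
Level of each nonclassical class I gene in each of the 4 libraries, in CPM on a log axis, with 1 point per library. IEC-/- replicate 2 (diamonds) lies at 318 to 368 CPM for H2-Q4, H2-Q6 and H2-Q7, where the other 3 libraries lie between 11 and 65.9 CPM; the points of H2-Q1, H2-Q2 and H2-Q10 overlap.

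Stretches of 200 bases upstream of the start sites are printed for 6 of the genes, because the genes that were at least 3-fold above the IEC+/+ mean in IEC-/- replicate 2 and those near that mean are relatives whose upstream sequences can be set side by side. They are from RefSeq on GRCm38.p6, in which 8 of the 9 genes were matched by symbol. The stretches are chr17:35379417-35379616 on the plus strand for H2-Q4, chr17:35424650-35424849 on the plus strand for H2-Q6, chr17:35438955-35439154 on the plus strand for H2-Q7 and chr17:36042743-36042942 on the minus strand for H2-T22. For comparison, chr17:35342107-35342306 on the plus strand belongs to H2-Q2 and chr17:35469889-35470088 on the plus strand to H2-Q10. Each is written 5′ to 3′ in the direction of the gene. Capitals mark matches on either strand to GTTTCACTT (the letters of an interferon-stimulated response element in class I promoters), GGGGATT (part of a kappa B element), CCAAT (a Y box) and TGACG (part of a cyclic AMP response element).
H2-Q4: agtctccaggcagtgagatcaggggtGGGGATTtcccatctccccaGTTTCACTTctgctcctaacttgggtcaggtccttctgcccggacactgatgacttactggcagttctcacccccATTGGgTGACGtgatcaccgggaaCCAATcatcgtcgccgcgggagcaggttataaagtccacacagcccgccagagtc
H2-Q6: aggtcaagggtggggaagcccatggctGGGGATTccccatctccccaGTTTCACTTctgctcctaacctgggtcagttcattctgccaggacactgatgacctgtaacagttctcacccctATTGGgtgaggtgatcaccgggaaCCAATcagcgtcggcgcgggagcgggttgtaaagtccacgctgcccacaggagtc
H2-Q7: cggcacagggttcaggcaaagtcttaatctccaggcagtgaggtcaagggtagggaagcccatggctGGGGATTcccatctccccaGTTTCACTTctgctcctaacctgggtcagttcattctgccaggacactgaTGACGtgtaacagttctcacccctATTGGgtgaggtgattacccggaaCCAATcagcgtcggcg
H2-T22: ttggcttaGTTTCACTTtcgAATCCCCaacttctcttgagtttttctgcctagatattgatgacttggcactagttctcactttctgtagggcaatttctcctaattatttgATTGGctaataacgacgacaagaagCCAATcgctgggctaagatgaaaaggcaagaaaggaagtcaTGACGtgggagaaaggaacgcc
H2-Q2: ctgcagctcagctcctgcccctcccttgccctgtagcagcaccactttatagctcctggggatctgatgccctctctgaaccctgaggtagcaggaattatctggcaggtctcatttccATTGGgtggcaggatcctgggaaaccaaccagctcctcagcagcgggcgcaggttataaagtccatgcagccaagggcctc
H2-Q10: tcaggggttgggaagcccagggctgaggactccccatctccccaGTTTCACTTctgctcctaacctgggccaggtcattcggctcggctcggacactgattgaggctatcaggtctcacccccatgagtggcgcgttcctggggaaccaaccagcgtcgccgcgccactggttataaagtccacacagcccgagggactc

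These motifs were picked after the promoters of the genes had been read, so their matches are a description of the letters and not evidence of binding. No base belongs to more than 1 match. H2-Q4, H2-Q6, H2-Q7 and H2-T22 each hold GTTTCACTT, GGGGATT and CCAAT. H2-Q10 holds GTTTCACTT alone, H2-Q2 and H2-T23 hold CCAAT alone, and H2-M3 holds GTTTCACTT, CCAAT and TGACG. Among 32851 RefSeq windows of the 250 bases before a start site, read on both strands, GTTTCACTT was in 0.338%, GGGGATT in 2.76%, CCAAT in 33.8% and TGACG in 17.8%. GTTTCACTT, GGGGATT and CCAAT, picked from these same promoters, came together in 8 windows (0.0244%), which is therefore no measure of enrichment. These were the windows of H2-Q4, H2-Q6, H2-Q7 and H2-T22, those at 2 start sites of H2-K1, that of H2-D1, and that of Gm6034, which starts beside H2-T22 on the opposite strand. In IEC-/- replicate 2 the level over the IEC+/+ mean was 24.7-fold for H2-Q7, 22.1-fold for H2-Q6, 6.29-fold for H2-Q4 and 3.08-fold for H2-T22. In the same library it was 2.03-fold for H2-M3, 1.64-fold for H2-T23, 1.23-fold for H2-Q10 and 1.08-fold for H2-Q2. B2m, whose window does not hold all 3, stood at 5.46-fold, above H2-T22 and also above H2-K1 (4.54-fold) and H2-D1 (3.14-fold), whose windows do. H2-Q5 (15.2-fold) and H2-T10 (8.94-fold) had no entry among the RefSeq promoters, so their motifs were not read. The part of these motifs in the levels was not tested.

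H2-Q6 and H2-Q7 lie side by side in the Q region and belong to the genes of the Qa-2 antigen, a class Ib molecule that can be held in the membrane by a lipid anchor. H2-Q6 is at chr17:35424850-35430055 and H2-Q7 at chr17:35439155-35443773, both on the plus strand of GRCm38 as annotated by GENCODE. H2-Q6 stood at 16.2 and 17.0 CPM in the IEC+/+ libraries (420 and 450 counts), at 20.3 CPM in IEC-/- replicate 1 (564 counts) and at 368 CPM in IEC-/- replicate 2 (9642 counts). The groups did not overlap, but 3 libraries lay within a few CPM and the other was 18.1 times the level of its own replicate (16.6 to 19.8, exact interval for counting error alone). The mean over the IEC+/+ pair was 16.6 ± 0.578 CPM (SD, n = 2) and over the IEC-/- pair 194 ± 246 CPM (SD, n = 2). This gave 3.54 ± 1.23 (SE) as the log2 fold change, with an edgeR adjusted p of 0.253. H2-Q7 had the same shape, with 11 and 16.9 CPM in IEC+/+ (286 and 446 counts), 17.0 CPM in IEC-/- replicate 1 (474 counts) and 345 CPM in IEC-/- replicate 2 (9045 counts). IEC-/- replicate 1 was barely above IEC+/+ replicate 2, and replicate 2 was 20.2 times replicate 1 (18.4 to 22.2). The log2 fold change of H2-Q7 was 3.70 ± 1.29 with an edgeR adjusted p of 0.255. By limma-voom the log2 fold changes were 2.37 for H2-Q6 (adjusted p = 0.565) and 2.47 for H2-Q7 (adjusted p = 0.581). Leaving out IEC-/- replicate 2 gave a log2 fold change of 0.28 for both genes, with edgeR adjusted p of 0.619 for H2-Q6 and 0.734 for H2-Q7.

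The counts of H2-Q6 and H2-Q7 cannot be read apart from those of their near-identical neighbours H2-Q8 and H2-Q9. H2-Q9 was listed with 286, 446, 474 and 9044 counts, within 1 count of H2-Q7 in every library. H2-Q8 had 131 and 130 counts in IEC+/+ and 189 and 3672 in IEC-/-. The shares of the 4 genes within their own sum moved little, H2-Q6 holding 30.6% to 37.4%, H2-Q7 25.5% to 30.3% and H2-Q8 8.83% to 11.7% across the 4 libraries. Equal counts in 2 rows leave it unknown how the counting treated reads that fit both genes, so the Qa-2 genes are better read as a group. With the 4 rows summed, the log2 fold change was 3.67 (edgeR quasi-likelihood test, adjusted p = 0.25). In GENCODE transcripts, 8.31% of the 150-base windows of H2-Q7 and 5.99% of those of H2-Q6 also occur in another gene, mostly in each other; H2-Q8 and H2-Q9 were not in the annotation used.

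H2-Q4, at chr17:35379617-35385290 on the plus strand, was the other Q gene that stood out. It stood at 47.6 and 53.6 CPM in IEC+/+ (1233 and 1417 counts), 65.9 CPM in IEC-/- replicate 1 (1833 counts) and 318 CPM in IEC-/- replicate 2 (8348 counts). The groups did not overlap, and IEC-/- replicate 2 was 4.83 times replicate 1 (4.59 to 5.08). The IEC+/+ mean was 50.6 ± 4.26 CPM and the IEC-/- mean 192 ± 178 CPM (both SD, n = 2), with a log2 fold change of 1.92 ± 0.69 (SE) and an edgeR adjusted p of 0.261. The log2 fold change without IEC-/- replicate 2 was 0.38 (adjusted p = 0.31 by edgeR). None of its 150-base windows occurred in another gene. An antisense gene, Gm11131, overlaps H2-Q4, and without stranded counting, which is not stated, their reads could not be told apart.

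H2-Q1, H2-Q2 and H2-Q10 did not share that pattern. H2-Q2, at chr17:35342242-35346762 on the plus strand, had 19.5 and 16.9 CPM in IEC+/+ (504 and 447 counts), 9.35 CPM in IEC-/- replicate 1 (260 counts) and 19.6 CPM in IEC-/- replicate 2 (513 counts). Here the low library was IEC-/- replicate 1, and the groups overlapped. Its log2 fold change was -0.33 ± 0.37 (SE, edgeR adjusted p = 0.724). H2-Q1, at chr17:35320405-35325099 on the plus strand, had 6.87 and 4.35 CPM in the control libraries, then 2.99 CPM in replicate 1 and 5.91 CPM in replicate 2 of IEC-/- (178, 115, 83 and 155 counts). IEC-/- replicate 1 was again the lowest, with overlapping groups and a log2 fold change of -0.34 ± 0.45 (adjusted p = 0.781 by edgeR). With IEC-/- replicate 2 left out, the log2 fold changes were -0.96 for H2-Q2 and -0.91 for H2-Q1 (edgeR adjusted p = 0.125 and 0.393). H2-Q10, known in the healthy mouse as a secreted class I protein made mainly by the liver, is at chr17:35470089-35474563 on the plus strand. Its levels were low, at 5.17 and 3.48 CPM in the control pair, 3.70 CPM in IEC-/- replicate 1 and 5.34 CPM in replicate 2 (134, 92, 103 and 140 counts). The libraries of both groups were interleaved, with a log2 fold change of 0.06 ± 0.38 (edgeR adjusted p = 0.962) whose 95% interval runs from -0.88 to 1.01. Among 12 genes of plasma proteins secreted by hepatocytes, the 3 fibrinogen genes Fga, Fgb and Fgg had 0 counts. Only 6 were tested, of which 2 had a higher IEC-/- mean and 4 a lower one (median log2 fold change -0.15). The 1 called was Alb, which rose (10.04 and 9.27 CPM in the control pair against 88.8 and 55.7 CPM, edgeR adjusted p = 0.0403). H2-Q1 and H2-Q2 share sequence, since 2.56% of the 150-base windows of H2-Q2 also occur in H2-Q1. Of the windows of H2-Q1, 4.28% occur in another gene. H2-D1, with 14257 to 51629 counts per library, shares 1.54% of its own windows with H2-Q1. How such reads were counted is not given, so the low counts of H2-Q1 may hold reads of H2-D1.

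In the T region, H2-T22 encodes a ligand of gamma delta T cells that folds without a peptide. It lies at chr17:36037128-36042747 on the minus strand. H2-T22 stood at 38.7 and 40.9 CPM in IEC+/+ (1003 and 1081 counts), 37.7 CPM in IEC-/- replicate 1 (1047 counts) and 122 CPM in IEC-/- replicate 2 (3212 counts). IEC-/- replicate 1 was the lowest library and replicate 2 the highest, 3.25 times replicate 1 (3.03 to 3.49), so the groups overlapped. Its log2 fold change was 1.01 ± 0.52 (SE, edgeR adjusted p = 0.412) with both IEC-/- libraries and -0.09 (adjusted p = 0.859) without replicate 2. The row of H2-T9 ran in parallel, with 938, 982, 930 and 2926 counts. How reads that fit both H2-T22 and H2-T9 were counted is not given, so their rows may not be separate. H2-T10, with which H2-T22 shared the most 150-base windows in GENCODE transcripts (0.774%), had 36, 55, 58 and 407 counts. With these 3 rows summed the log2 fold change was 1.04 (adjusted p = 0.411 by edgeR).

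H2-T23 encodes the heavy chain of Qa-1, which carries a peptide cut from the leader of classical class I chains and is read by the CD94/NKG2A receptor of NK and CD8 T cells. It lies at chr17:36029773-36032855 on the minus strand. H2-T23 stood at 99.1 and 90.4 CPM in IEC+/+ (2568 and 2388 counts), 86.5 CPM in IEC-/- replicate 1 (2404 counts) and 155 CPM in IEC-/- replicate 2 (4073 counts). The IEC-/- libraries lay on either side of the IEC+/+ pair, and replicate 2 was 1.80 times replicate 1 (1.71 to 1.89). The log2 fold change was 0.35 ± 0.28 (SE, edgeR adjusted p = 0.598), and -0.14 (adjusted p = 0.728) without IEC-/- replicate 2. A930015D03Rik overlaps H2-T22 and H2-T23 on the opposite strand and had 37, 47, 58 and 99 counts, few beside those of either gene.

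H2-M3 presents peptides that begin with N-formyl-methionine, such as those of bacteria and mitochondria, and lies at chr17:37270220-37274484 on the plus strand. It stood at 8.84 and 8.78 CPM in IEC+/+ (229 and 232 counts), 9.85 CPM in IEC-/- replicate 1 (274 counts) and 17.9 CPM in IEC-/- replicate 2 (469 counts). The groups did not overlap, and the IEC-/- libraries differed 1.81-fold from each other (1.56 to 2.11). Its log2 fold change was 0.65 ± 0.33 (SE, edgeR adjusted p = 0.411), and 0.16 (adjusted p = 0.853) without IEC-/- replicate 2.

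**Figure D2:**
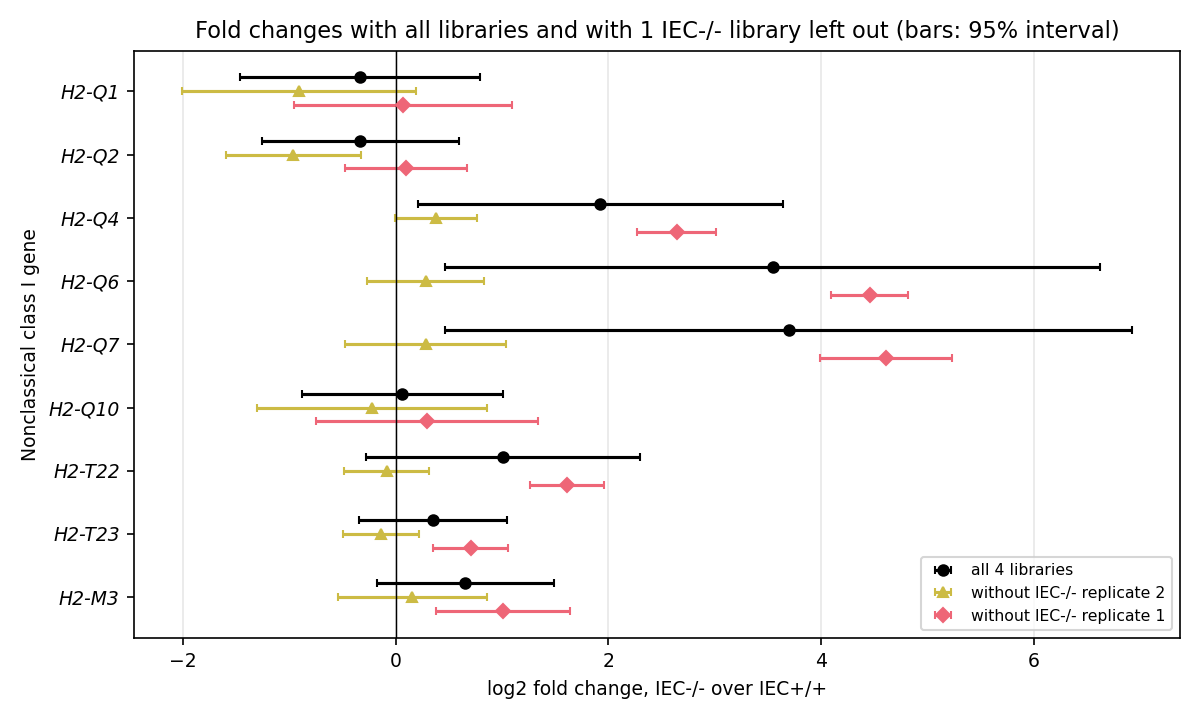
Log2 fold change of each nonclassical class I gene, IEC-/- over IEC+/+, with its 95% interval, from all 4 libraries (circles), without IEC-/- replicate 2 (triangles) and without IEC-/- replicate 1 (diamonds). The value of H2-Q7 moves from 3.70 with all libraries to 0.28 without IEC-/- replicate 2 and 4.61 without IEC-/- replicate 1.

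Leaving out 1 library of the IEC-/- pair gave different calls for the 9 genes. Without IEC-/- replicate 1, H2-Q4 (log2 fold change 2.64, adjusted p = 0.0022), H2-Q6 (4.46, adjusted p = 0.000612), H2-Q7 (4.61, adjusted p = 0.00203) and H2-T22 (1.61, adjusted p = 0.00512) passed edgeR's test as higher, as did 2.00% of all genes, and 0 of the 9 passed as lower, against 2.24% of all genes. This fit sets a lone IEC-/- library against the IEC+/+ pair and assumes that it varies as that pair does. In the fit without IEC-/- replicate 2, 0 of the 9 passed edgeR's test in either direction, where 0.989% of all genes were called higher and 2.33% lower, and 1 (H2-Q2, lower) had an unadjusted p under 0.05, as did 2870 of the 17087 genes tested in that fit. Leaving out either IEC+/+ library left 0 genes called by edgeR, of the 9 or of all, with 1384 and 1754 of all genes and 0 of the 9 at an unadjusted p under 0.05.

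The spread of the 9 genes within a group was also measured. Between the IEC-/- libraries, 5 of the 9 were at least 2-fold higher in replicate 2 (H2-Q2, H2-Q4, H2-Q6, H2-Q7 and H2-T22), where 6.07% of all genes were. H2-Q7 ranked 47 and H2-Q6 50 of 16637 genes by that ratio, H2-Q4 229 and H2-T22 424, and H2-Q10, the last of the 9, 2218. H2-Q2 reached the list through a low value in IEC-/- replicate 1, not a high one in replicate 2. Between the IEC+/+ libraries, 0 of the 9 differed 2-fold upwards, against 3.37% of all genes, and their ratios ran from 0.633 to 1.53.

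The order of the genes changed with these levels. Per kilobase of exonic sequence, H2-T23 was the most abundant of the 9 in IEC+/+ tumours, with a mean level of 64.4 CPM per kilobase. It was followed by H2-Q4 at 28.2, H2-T22 at 22.1, H2-Q7 at 9.09, H2-Q2 at 8.34, H2-Q6 at 7.97, H2-M3 at 6.13, H2-Q1 at 2.76 and H2-Q10 at 2.17 CPM per kilobase. The ranges of H2-Q7, H2-Q2 and H2-Q6 overlapped between the IEC+/+ libraries, as did those of H2-Q1 and H2-Q10. In IEC-/- replicate 2 the order began with H2-Q7 at 225 CPM per kilobase, H2-Q4 at 178 and H2-Q6 at 176. H2-T23 at 106 and H2-T22 at 67.8 came next. By CPM alone H2-Q6 (368) was above H2-Q7 (345) in that library, so their order rests on GENCODE lengths of 2085 and 1536 bases. The annotation used in counting is not given, and neither gene can be read apart from H2-Q8 and H2-Q9. H2-T23 made up 39.2% and 35.8% of the counts of the 9 genes in IEC+/+, 34.1% in IEC-/- replicate 1 and 11.4% in IEC-/- replicate 2, in which H2-Q6 and H2-Q7 held 27.1% and 25.4%. The classical chains were far more abundant, H2-K1 at 302 and 282 CPM per kilobase in the control pair, 252 in IEC-/- replicate 1 and 1324 in IEC-/- replicate 2.

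Other class Ib and class I-like genes varied in their pattern. Of 31 listed, 30 were in the files and 21 were tested, and 0 passed edgeR's test, where 7 that were higher and 2 that were lower had unadjusted p-values under 0.05. Their median log2 fold change was 0.45. Their summed level was 263 and 270 CPM in IEC+/+, 269 CPM in IEC-/- replicate 1 and 803 CPM in IEC-/- replicate 2. That sum includes H2-Q9, H2-Q8 and H2-T9, at 345, 140 and 112 CPM in IEC-/- replicate 2. In IEC+/+ the means of these genes were 14.0, 4.99 and 36.7 CPM. The counting may not separate their rows from H2-Q7, H2-Q6 and H2-T22, so the sum is not independent of the 9 genes. H2-Q5, a neighbour in the Q region, stood at 3.16 and 2.99 CPM in IEC+/+, 5.86 CPM in IEC-/- replicate 1 and 46.8 CPM in IEC-/- replicate 2, so that both IEC-/- libraries were above IEC+/+ and replicate 2 again stood apart (log2 fold change 3.10, edgeR quasi-likelihood adjusted p = 0.208). The edgeR exact test called H2-Q5 higher (adjusted p = 0.0235), and its log2 fold change was 0.92 (adjusted p = 0.318) without IEC-/- replicate 2 and 3.92 (adjusted p = 0.00231) without replicate 1. H2-M2, of the M region, had 1.78 and 2.42 CPM in the control pair against 5.14 and 4.57 CPM (log2 fold change 1.21, edgeR adjusted p = 0.198). Cd1d1, which presents lipids to NKT cells, had 14.0 and 16.8 CPM against 24.7 and 25.5 CPM (0.71, edgeR adjusted p = 0.162), and DESeq2 called it higher (adjusted p = 0.0269). For both genes the IEC-/- libraries were close together and above IEC+/+. Raet1e, which belongs to the family of NKG2D ligands, was below IEC+/+ in both IEC-/- libraries, with 7.99 and 7.15 against 4.14 and 3.09 CPM (-1.07, edgeR adjusted p = 0.192). Gm11127, a class I-like gene named here after its values were seen, ran the other way from the Q genes, with 72.5 and 103 CPM in IEC+/+, 84.2 CPM in IEC-/- replicate 1 and 22.9 CPM in IEC-/- replicate 2.

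The classical genes and the shared light chain were high in the same library. H2-K1 stood at 522 and 488 CPM in IEC+/+, 436 CPM in IEC-/- replicate 1 and 2291 CPM in IEC-/- replicate 2, with a log2 fold change of 1.43 (edgeR adjusted p = 0.397). H2-D1 stood at 630, 625, 513 and 1968 CPM in the same order (0.98, edgeR adjusted p = 0.47). B2m, the gene of beta-2-microglobulin, stood at 303, 285, 318 and 1605 CPM (1.71, edgeR adjusted p = 0.31). In each, IEC-/- replicate 2 was the highest library and the other 3 were close together. The log2 fold change of B2m was 0.11 (edgeR adjusted p = 0.787) without IEC-/- replicate 2 and 2.44 (adjusted p = 0.00231) without replicate 1. H2-K1, H2-D1 and H2-L were also called higher by edgeR without replicate 1 (log2 fold changes 2.17, 1.64 and 1.62, adjusted p = 0.00309, 0.00572 and 0.00547), and were at -0.22, -0.30 and -0.27 without replicate 2. The 9 class Ib genes had 22% and 22.7% as many counts as H2-K1 and H2-D1 together in IEC+/+, 26.7% in IEC-/- replicate 1 and 31.9% in IEC-/- replicate 2. H2-L and H2-D1 share sequence, and H2-L, at 408, 394, 333 and 1244 CPM, is a gene that some mouse strains lack.

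**Figure D3:**
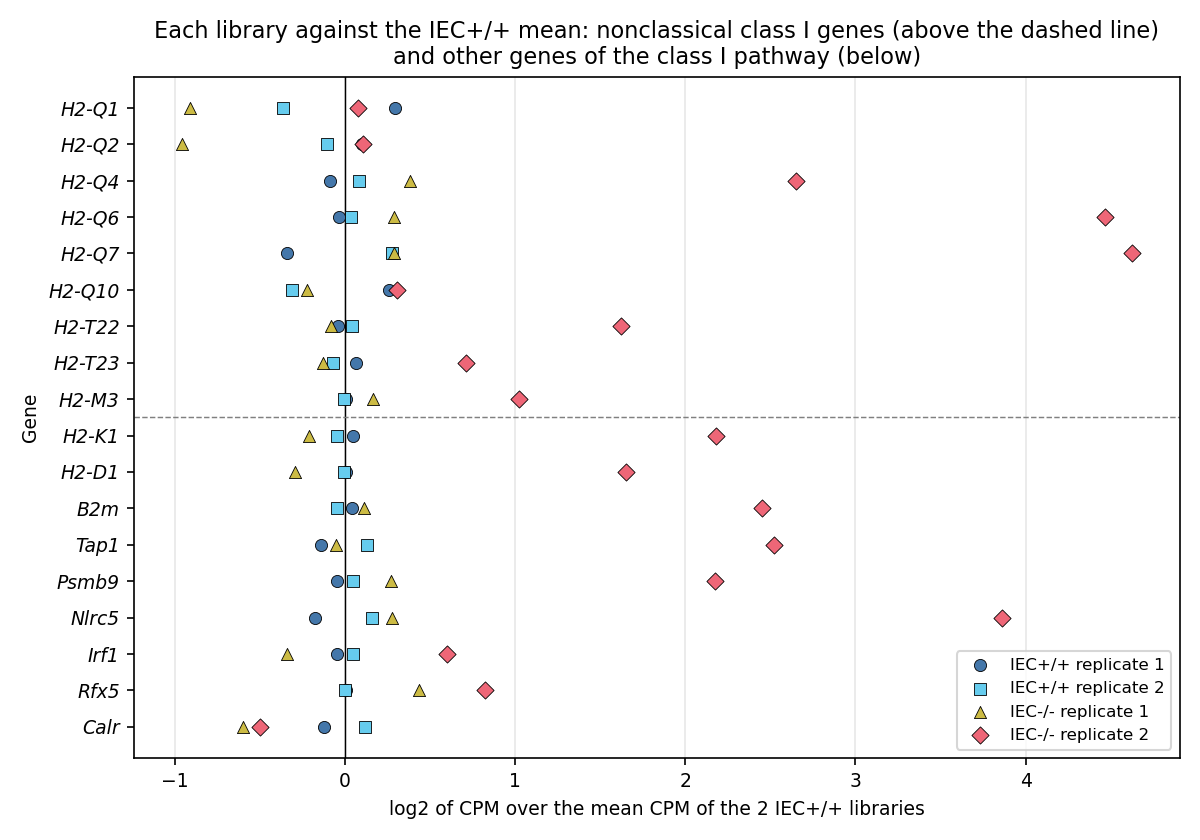
Level of each gene in each library as the log2 of its CPM over the mean CPM of the 2 IEC+/+ libraries, for the 9 nonclassical class I genes and 9 other genes of the class I pathway. IEC-/- replicate 2 (diamonds) is far to the right for H2-Q6, H2-Q7 and Nlrc5 and near 0 for H2-Q1, H2-Q2 and H2-Q10; Calr lies left of 0 in both IEC-/- libraries.

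Genes that supply and load peptides split into groups. Of 14 tested, 0 passed edgeR's test, though by unadjusted p-values 1 was higher and 2 were lower, and their median log2 fold change was 0.20. Psmb9 and Psmb8, subunits of the immunoproteasome that interferon induces, had 9.34, 9.95, 11.7 and 43.6 CPM and 22.3, 24, 26.4 and 100 CPM in the order IEC+/+ replicates 1 and 2, IEC-/- replicates 1 and 2. Tap1, a subunit of the peptide transporter that was named here after its values were seen, had 25.8, 31.2, 27.5 and 164 CPM. All 3 were highest in IEC-/- replicate 2, and edgeR called Psmb9 and Psmb8 higher without IEC-/- replicate 1 (adjusted p = 0.00697 and 0.00309). Calr and Canx, chaperones of the endoplasmic reticulum that also fold many other proteins, were lower in both IEC-/- libraries. Calr had 840 and 993 against 603 and 649 CPM (log2 fold change -0.55, edgeR adjusted p = 0.144), and Canx 507 and 586 against 388 and 419 CPM (-0.44, edgeR adjusted p = 0.199). DESeq2 called both lower, with adjusted p of 0.0076 for Calr and 0.0468 for Canx.

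Among 21 regulators of class I transcription, 0 passed edgeR's test, unadjusted p-values under 0.05 were found for 2 that were higher and 3 that were lower, and the median log2 fold change was -0.02. Nlrc5, the class I transactivator, stood at 5.71 and 7.19 CPM in IEC+/+, 7.80 CPM in IEC-/- replicate 1 and 93.9 CPM in IEC-/- replicate 2 (2.98 ± 1.08 SE, edgeR adjusted p = 0.264). IEC-/- replicate 2 was 12.0 times replicate 1 (10.5 to 13.9), below the ratios of H2-Q6 and H2-Q7. The log2 fold change of Nlrc5 was 0.27 (adjusted p = 0.77 by edgeR) without IEC-/- replicate 2 and 3.85 (adjusted p = 0.00203) without replicate 1. Rfx5, a subunit of the RFX complex that binds class I and class II promoters, had 39.3 and 39.2 against 53.0 and 69.4 CPM (0.64, edgeR adjusted p = 0.149), above IEC+/+ in both IEC-/- libraries. Rfx5 was called higher by DESeq2 (adjusted p = 0.0327) and, by edgeR, without IEC-/- replicate 1 (0.81, adjusted p = 0.0403). Irf2 and Ifngr1, a receptor chain for interferon gamma, were below IEC+/+ in both (65.5 and 59.8 against 46.3 and 50.0 CPM, and 196 and 191 against 159 and 149 CPM). Irf1, named after its values were seen, had 102, 109, 82.9 and 159 CPM.

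Most interferon-induced genes tested outside the class I pathway also moved with that library. Of 20 tested, 0 passed edgeR's test and 5 had an unadjusted p under 0.05, all higher. In IEC-/- replicate 2, 16 of 20 were at least 2-fold higher than in replicate 1, where 6.07% of all genes were. The IEC-/- mean was higher for 17 and lower for 3 (Irf7, Oas1a and Rsad2). These 3 were low in IEC-/- replicate 1 and near their IEC+/+ levels in replicate 2. Rsad2, among the 16, had 13.2 and 8.06 CPM in IEC+/+, then 4.14 and 10.8 CPM in IEC-/- replicates 1 and 2. The summed level of the 20 genes was 377 and 433 CPM in IEC+/+, 339 CPM in IEC-/- replicate 1 and 1764 CPM in IEC-/- replicate 2. When IEC-/- replicate 2 was left out 2 of them were called lower, and without IEC-/- replicate 1, 12 were called higher. Ifng, the gene of interferon gamma, had 0 counts in 3 libraries and 19 in IEC-/- replicate 2. The part of interferon signalling in the levels of the class Ib genes was not tested.

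Receptors of lymphocytes and other blood cells linked to class I or class I-like ligands were mostly near the limit of detection. Of 11 listed, 6 were tested and 0 passed edgeR's test, with 1 at an unadjusted p under 0.05. Klrc1, which encodes NKG2A, had 14, 22, 9 and 68 counts, and Klrk1, which encodes NKG2D, had 18, 8, 20 and 49. Both were highest in IEC-/- replicate 2, and Klrc2 had 0 counts in all libraries. Lilrb4a and Pirb, inhibitory receptors of myeloid and other blood cells, had 18.4, 24, 28.3 and 31.1 CPM and 17.1, 16.9, 14.3 and 16.6 CPM.

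Markers of other cell types differed between the same libraries. Of 10 markers of NK and cytotoxic cells, the 5 that were tested summed to 5.36 and 7 CPM in IEC+/+, 7.34 CPM in IEC-/- replicate 1 and 15.9 CPM in IEC-/- replicate 2, and Ncr1, which defines NK cells, had 0 to 5 counts. Of the 5 tested, 4 had a higher IEC-/- mean and 1, Eomes, a lower one. Eomes had 33 and 30 counts in IEC+/+ and 7 and 19 in IEC-/-, and Klrg1 was nearly level, with 23 and 27 against 23 and 29. Other markers of cytotoxic cells too low to test were highest in IEC-/- replicate 2, with 8, 0, 6 and 37 counts of Nkg7, 0, 6, 2 and 25 of Prf1 and 7, 0, 2 and 26 of Tbx21 in the order IEC+/+, then IEC-/-, replicates 1 and 2. Cd8a, a chain of the CD8 receptor, had 4, 2, 6 and 39 counts in that order, while Cd8b1, its other chain, had 10, 4, 9 and 6. The 8 markers of B and plasma cells summed to 589 and 706 CPM, 229 CPM and 2545 CPM in that order, nearly all of it Jchain. The 10 T cell markers summed to 80.8 and 67.6 CPM in the control pair against 99.5 and 102 CPM, with little between the IEC-/- libraries. The 7 neutrophil markers summed to 120 and 207 CPM and 101 and 374 CPM, though Ly6g among them fell (edgeR adjusted p = 0.0322). The 10 macrophage and dendritic cell markers were highest in IEC-/- replicate 1, at 1365 CPM, against 960 CPM in replicate 2 and 816 and 675 CPM in the control pair. All 10 epithelial markers had a lower IEC-/- mean, with a median log2 fold change of -0.85. By edgeR, 8 of them had an unadjusted p under 0.05, as did 16.6% of all genes in either direction. The 2 that passed as lower, as did 0.763% of all genes, were Krt20 and Lgals4 (edgeR adjusted p = 0.0461 and 0.0403). The part of cell makeup in the class Ib levels was not tested.

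**Figure D4:**
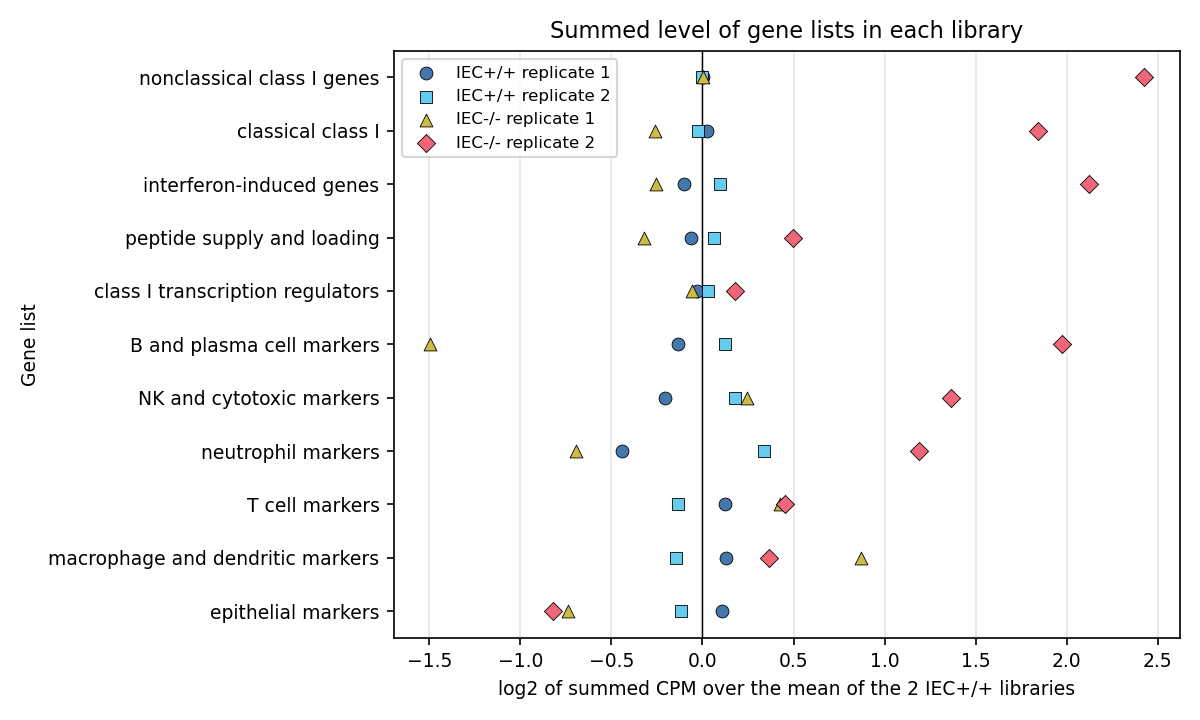
Summed CPM of the tested genes of each list in each library, as the log2 over the mean of the 2 IEC+/+ libraries. IEC-/- replicate 2 (diamonds) lies at the right for nonclassical and classical class I genes, interferon-induced genes and B and plasma cell markers, while the epithelial markers of both IEC-/- libraries lie at the left.

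Genes outside the 9 with the most similar profile were found for each by the root mean square distance between log2 CPM values centred on each gene's mean, over the 4 libraries and 15133 genes. With 4 libraries this is a description of shape alone, and no test. For H2-Q7 they were H2-Q9 (distance 0), the interferon-induced GTPase gene Iigp1 (0.107) and H2-Q8 (0.238). H2-Q6 was nearest to H2-Q8 (0.141), H2-Q9 (0.206) and Kcnj15 (0.214). For H2-Q4 the nearest were Pkd2l1 (0.139), B2m (0.152) and Ifi204 (0.157). H2-T22 was nearest to H2-T9 (0.026), Lrrc75b (0.061) and Pcyt1b (0.067). For H2-T23 they were Sp100 (0.013), Ctsw (0.037) and Igfbp5 (0.039), and for H2-M3 Frs3 (0.026), Ifi27l2a (0.039) and Ttll11 (0.040). H2-Q2, which followed the low library and not the high one, was nearest to Irf7 (0.058), Oas1g (0.064) and Cdkn1a (0.067). H2-Q1 was nearest to B430306N03Rik (0.021), Ccr9 (0.023) and Ces1f (0.072), and H2-Q10 to Dhrs13os (0.020), Lgi2 (0.031) and Rerg (0.034).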

How the data were processed

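The authors deposited 1 table of raw read counts for each library, in whole numbers with genes named by symbol, as the values show. TopHat, limma, edgeR and mm10 appear in the submitters' processing notes without a version or a stated use. The annotation, the program that counted reads, use of strand and treatment of reads that fit several genes are not given in the sources used here. Groups and replicate numbers come from the sample titles.

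The 4 libraries were tested in edgeR 4.0.16 (R 4.3.3) with TMM scaling, the default filter on low counts and a quasi-likelihood test with group as the only term. P-values were adjusted by Benjamini-Hochberg over 16637 genes, with a threshold of 0.05. CPM use the scaled library sizes. Standard errors were derived from the F statistic, and intervals cover 95%. Counting intervals are exact and cover counting error only. DESeq2 1.42.0, the edgeR exact test, limma-voom 3.58.1, other scalings and filters, a replicate block and each library left out were alternatives. The script was tested on simulated data. Gene models and lengths are from GENCODE for GRCm38, promoters from RefSeq GRCm38.p6. The genes and lists were chosen with earlier results of these data known. Other genes named were H2-K1, H2-D1, B2m, Nlrc5 and up to 4 of smallest p in each class I list, with the 3 genes nearest in profile to each of the 9; genes outside this rule are so marked, apart from Gsk3b and the genes that show a cell type list, paralogs or overlapping genes. Some results are not reported here.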

Additional observations from a re-analysis of the deposited data

How the results depend on the processing

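None of the 9 class Ib genes was called under any alternative except without IEC-/- replicate 1, where 4 were. Among other genes named, DESeq2 also called Cd1d1, Calr, Canx and Rfx5, and the exact test H2-Q5. The log2 fold change of their sum (1.67) was 1.22 by limma-voom, 1.77 with library totals and 0.011 to 2.42 with a library left out, and their median (0.65) was -0.085 to 1.01. Over all genes, 147 calls became 1293 by DESeq2, 882 by the exact test, 78 by limma-voom, 83 with library totals, 376 without a filter and 0 to 729 with a library left out. The share of calls that were higher, 13.6%, was 37.3% by DESeq2, 35.8% by the exact test, 47.2% without IEC-/- replicate 1 and 29.8% without IEC-/- replicate 2. Library totals moved the median log2 fold change of all genes from 0.01 to 0.12. The other lists had 4 calls, 17 by DESeq2, 13 by the exact test and 0 to 40 with a library left out. With a library left out, directions turned for H2-Q1 (-0.91 to 0.066; 0.026 without IEC+/+ replicate 1), H2-Q2 (-0.96 to 0.095), H2-Q10 (-0.23 to 0.37; -0.20 without IEC+/+ replicate 2), H2-T22 (-0.085 to 1.61), H2-T23 (-0.14 to 0.70), H2-K1 (-0.22 to 2.17), H2-D1 (-0.30 to 1.64), H2-L (-0.27 to 1.62) and Klrc1 (-1.08 to 1.90), the low ends without IEC-/- replicate 2 and the high ends without IEC-/- replicate 1, except the high end of H2-Q10, without IEC+/+ replicate 1. By limma-voom and with the replicate block, the log2 fold changes were 2.37 and 2.41 for H2-Q6, 2.47 and 2.55 for H2-Q7, 1.52 and 1.53 for H2-Q4 and 2.04 and 2.14 for Nlrc5. The cause of these shifts was not tested.

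Samples with the same replicate number deviated together only weakly (r = 0.16 across 16637 genes, which are not independent replicates), with 2 pairs, so the numbers were not taken to pair the libraries. With the replicate number as a block, 0 of the 9 genes and 211 of all genes were called, and the log2 fold change of the sum was 1.22 (adjusted p = 0.406 by edgeR). With 2 libraries a group, the spread within IEC-/- limits every estimate; depth limits mainly H2-Q1, H2-Q10 and the receptor genes.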
